A study of Homo sapiens with 8 samples.

Results

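The miR-130, miR-301 and miR-454 family (called the miR-130 family here) and the miR-148 and miR-152 family (called the miR-148 family) are described here side by side in PC-3 cells, an established human prostate cancer line, after treatment with luteolin, gefitinib or both drugs. The members were chosen by name in the scanner files: hsa-miR-130a-3p, hsa-miR-130b-3p, hsa-miR-301a-3p, hsa-miR-301b and hsa-miR-454-3p for the first family, and hsa-miR-148a-3p, hsa-miR-148b-3p and hsa-miR-152 for the second (hsa, for human, is left off from here on). They are 8 of the 1887 human miRNAs on the array, and the rule that picks them uses names only. PC-3 cells were exposed for 24 h to DMSO (the solvent that every drug was dissolved in), to 60 µM luteolin (a plant flavonoid), to 60 µM gefitinib (a drug that blocks the kinase of the receptor EGFR), or to both drugs at 60 µM each. Each of the 4 treatments had 2 arrays, labelled as biological replicates, and all 8 arrays carried total RNA labelled with 1 dye. At this time point 0 of the 8 members passed the test against DMSO under any of the 3 treatments, where 2.08% (luteolin), 12.1% (gefitinib) and 12.1% (both drugs) of the 480 miRNAs tested did. With 8 members, a count of 0 is near these shares. Of the 8 members 6 varied less over the 8 arrays than the median detected miRNA.

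A miRNA is a short RNA that guides an Argonaute protein to messenger RNAs, mainly by pairing of its seed, bases 2 to 8 from the 5′ end, with sites in their 3′ untranslated regions. Such pairing lowers the stability and translation of the target. Members of a family share the seed and so largely share targets. The miR-130 family is known for repressing regulators of growth and angiogenesis, and the miR-148 family for repressing DNA methyltransferases such as DNMT1. In prostate cancer cells miR-148a is known as a miRNA that responds to androgen.

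The mature sequences below show why the members fall into 2 families, with the seed in capitals. They are the RefSeq entries of build GRCh38.p14, written 5′ to 3′, for 7 of the 8 members. The entries for miR-301b and miR-152 carry the arm name miR-301b-3p and miR-152-3p. No entry is shown for miR-130a-3p.
miR-130b-3p: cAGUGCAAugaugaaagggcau
miR-301a-3p: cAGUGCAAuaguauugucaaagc
miR-301b-3p: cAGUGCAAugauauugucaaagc
miR-454-3p: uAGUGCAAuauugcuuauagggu
miR-148a-3p: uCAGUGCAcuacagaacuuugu
miR-148b-3p: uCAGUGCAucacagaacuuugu
miR-152-3p: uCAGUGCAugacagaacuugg

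The 4 listed members of the miR-130 family shared the seed AGUGCAA and the 3 members of the miR-148 family shared CAGUGCA. The seeds have the 6 letters AGUGCA in common, moved by 1 base, so that the families read as neighbours in sequence although their seeds differ. Within the families some members were nearly identical. Counted from 1 at the 5′ end, miR-301a-3p and miR-301b differed at 2 of 23 positions (A10G and G11A). The miR-148a-3p and miR-148b-3p sequences differed at 2 of 22 positions (C9U and U10C). From miR-148b-3p to miR-152 there were 2 differences over 21 positions (C10G and U20G). Close sequences can share signal on an array, which was not tested.

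Among 2370 names of mature human miRNAs in RefSeq, 2 others carried the seed AGUGCAA and none carried CAGUGCA. They are shown because they would act on the same seed sites.
miR-3666: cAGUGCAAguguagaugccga
miR-4295: cAGUGCAAuguuuuccuu
Both were on the array, and each was detected on 0 of the 8 arrays. The opposite strands that the array measured were no more visible: miR-130a-5p, miR-130b-5p, miR-301a-5p, miR-454-5p, miR-148a-5p and miR-148b-5p were each detected on 0 of 8 arrays. The opposite arms of miR-301b and miR-152 had no entry on the array. Among the members, these opposite arms and the relatives, signal was thus detected for the members only.

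The members lie at 6 places in the genome, given here on GRCh38.p14. The miR-130b-3p sequence lies at chr22:21653354-21653375 and miR-301b at chr22:21653025-21653047, both on the plus strand with 306 bases between them. The miR-301a-3p sequence lies at chr17:59151149-59151171 and miR-454-3p at chr17:59137787-59137809, both on the minus strand, 13339 bases apart and inside the span of SKA2, which encodes a spindle and kinetochore protein. The other three sequences lie apart from the other members: miR-148a-3p at chr7:25949922-25949943 (minus strand), miR-148b-3p at chr12:54337278-54337299 (plus strand) inside the span of COPZ1, and miR-152 at chr17:48037174-48037194 (minus strand) inside the span of COPZ2, with the miRNA gene MIR10226 nearby. COPZ1 and COPZ2 encode paralogous subunits of the COPI vesicle coat. MIR130A lies on chromosome 11 inside the span of its host transcript MIR130AHG.

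The 8 arrays were on 1 slide read in 1 scan, and 365 miRNAs were detected on every array. Among miRNAs known for PC-3 cells, miR-21-5p, miR-221-3p and miR-222-3p were detected on 8 of 8 arrays, with a summed scaled signal between 4157 and 5531. Of the epithelial markers miR-200b-3p was detected on all 8 arrays and miR-205-5p on 6, whereas miR-200c-3p and miR-141-3p were detected on none. Markers of fibroblasts and smooth muscle (0 of 4), skeletal muscle (0 of 3) and liver (0 of 1) were not detected, and 1 of 7 blood markers was detected, on 1 luteolin array. Of 2 neuronal markers, miR-9-5p was detected on 8 arrays and miR-124-3p on none.

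Values below are scaled signals: the total signal of a miRNA, summed by the scanner software over the probes it counts, after each array was divided by its 75th percentile over the 365 miRNAs. The unit is that of the array, and levels of different miRNAs are not compared, since their probes differ. In RNA from whole cultures, a lower signal from fewer cells of a kind cannot be told apart from less of the miRNA per cell.

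The miR-130a-3p signal was 214 and 274 in the DMSO samples, 201 and 257 with luteolin, 187 and 213 with gefitinib, and 211 and 244 with both drugs. Both gefitinib values lay below both DMSO values, by a small margin at the nearest pair. Its closest relative by name, miR-130b-3p, measured 53.0 and 63.9 with DMSO, 46.6 and 53.8 with luteolin, 42.2 and 49.6 with gefitinib, and 44.0 and 52.0 with both drugs. Here the gefitinib values and those with both drugs lay below both DMSO values, whereas the higher luteolin value lay between the DMSO values. For miR-301a-3p the signal was 58.2 and 75.4 with DMSO, 62.9 and 82.6 with luteolin, 57.4 and 64.2 with gefitinib, and 66.4 and 75 with both drugs. The order of the group means was luteolin, both drugs, DMSO and gefitinib, and each group overlapped with DMSO.

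The 2 remaining members of that family were closer to the background of the array. A signal of 5.31 and 6.24 was found for miR-301b with DMSO, 5.98 and 7.18 with luteolin, 5.11 and 5.69 with gefitinib, and 6.03 and 5.91 with both drugs. Each treatment overlapped with DMSO, and the luteolin values lay above both gefitinib values. For miR-454-3p the values were 5.51 and 11.4 with DMSO, 7.63 and 14.0 with luteolin, 9.92 and 9.29 with gefitinib, and 9.35 and 9.19 with both drugs. The 2 DMSO arrays and the 2 luteolin arrays of miR-454-3p differed from each other by more than any group means did, and the values with gefitinib and with both drugs lay between the DMSO values.

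In the miR-148 family, miR-148b-3p measured 21.6 and 27.9 with DMSO, 22.5 and 29.8 with luteolin, 23.3 and 22.5 with gefitinib, and 21.9 and 23.4 with both drugs. For miR-152 the values were 2.43 and 3.15 with DMSO, 2.68 and 3.48 with luteolin, 2.87 and 2.85 with gefitinib, and 2.74 and 2.66 with both drugs. All treatments of both miRNAs overlapped with DMSO. The member with the widest spread was miR-148a-3p, with 3.44 and 1.80 in DMSO, 3.84 and 3.31 in luteolin, 5.48 and 3.27 in gefitinib, and 3.89 on the first array of both drugs. On the second array of both drugs miR-148a-3p was not detected, which made it the only member not detected on all 8 arrays.

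**Figure D1:**
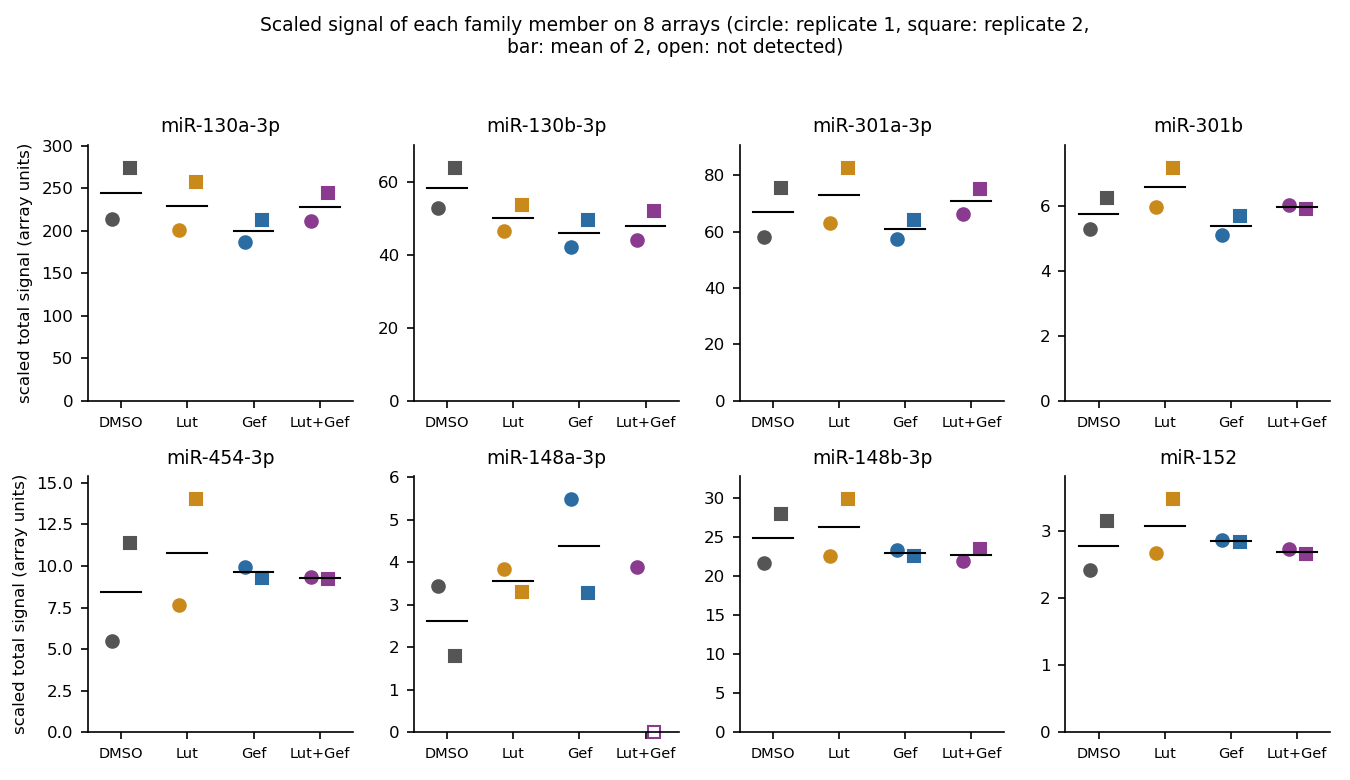
Scaled total signal (array units, linear axis from 0) of each member on the 8 arrays, by treatment. Circles are replicate 1 and squares replicate 2, bars are the mean of 2 arrays, and the open square at 0 marks the array on which miR-148a-3p was not detected. The groups of miR-130a-3p run from 187 to 274 and overlap except for gefitinib and DMSO, and the values of miR-454-3p differ most between the arrays of DMSO (5.51 and 11.4) and of luteolin (7.63 and 14.0).

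With luteolin alone the members lay between 0.860 and 1.43 times the DMSO level, and 0 of 8 members passed the limma test at an adjusted p under 0.05, where 2.08% of the 480 miRNAs tested did. The median log2 fold change was 0.12 for the miR-130 family and 0.14 for the miR-148 family, beside -0.10 over all miRNAs tested. Among the single members, the largest value in size with an interval inside 2-fold was that of miR-130b-3p, with a log2 fold change of -0.22 (SE 0.18, adjusted p = 0.889). For miR-454-3p the value was 0.39 (SE 0.42, adjusted p = 0.932). The remaining values ran from -0.09 for miR-130a-3p to 0.52 for miR-148a-3p, the upper end of the range. Without the second DMSO array the value of miR-148a-3p was 0.05.

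With gefitinib the members lay between 0.786 and 1.70 times the DMSO level, and 0 of 8 members were among the 12.1% of the 480 miRNAs called. The median log2 fold change was -0.12 for the miR-130 family and 0.05 for the miR-148 family, beside -0.10 over all miRNAs tested. The lowest value, that of miR-130b-3p, was -0.35 (SE 0.18, adjusted p = 0.348), or 0.786 of the DMSO level, and miR-130a-3p followed with -0.28 (SE 0.21, adjusted p = 0.519). Neither passed the test. Their gefitinib arrays did not overlap with the DMSO arrays, which held for 2 of 8 members, beside 57.5% of the 480 miRNAs. The values of the other members ran from -0.12 for miR-301a-3p to 0.76 for miR-148a-3p (SE 0.88, adjusted p = 0.685). Without the second DMSO array the value of miR-148a-3p was 0.30.

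With both drugs, 12.1% of the miRNAs were called and again 0 of 8 members. The family medians were 0.05 for miR-130 and -0.12 for miR-148, beside -0.16 over all miRNAs tested. Again miR-130b-3p had the lowest value of its family at -0.28 (SE 0.18, adjusted p = 0.414). The largest value in size was that of miR-148a-3p at -0.69 (SE 0.88, adjusted p = 0.676), which rested on the array where it was not detected and was set to the floor of 0.609: without that array the value was 0.64.

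In each of these 3 comparisons 0 of 8 members had an unadjusted p under 0.05, beside 8.54% of the 480 miRNAs for luteolin, 23.8% for gefitinib and 25.8% for both drugs, and the methods' t-test also gave 0 members, before as after adjustment. In the main scaling the 95% interval of the fold change lay within 2-fold in either direction for 6 of the 8 members in every comparison with DMSO, with bounds from -0.67 to 0.65 on the log2 scale for luteolin, -0.80 to 0.53 for gefitinib and -0.74 to 0.62 for both drugs. The exceptions were miR-454-3p and miR-148a-3p. For miR-454-3p the bounds reached 1.43 with luteolin, 1.33 with gefitinib and 1.28 with both drugs, and those of miR-148a-3p ran from -2.88 to 2.95 over the 3 comparisons. These intervals are not adjusted for the number of miRNAs, and they moved with the scaling. With arrays scaled to small-RNA control probes, the interval of miR-301a-3p with both drugs ran from 0.03 to 1.03 and that of miR-301b from 0.11 to 0.87 (adjusted p = 0.0819), so that both lay above 0 although neither passed the test. With quantile normalization the interval of miR-152 was not within 2-fold in any of the 3 comparisons. Without scaling miR-152 with gefitinib was outside as well.

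**Figure D2:**
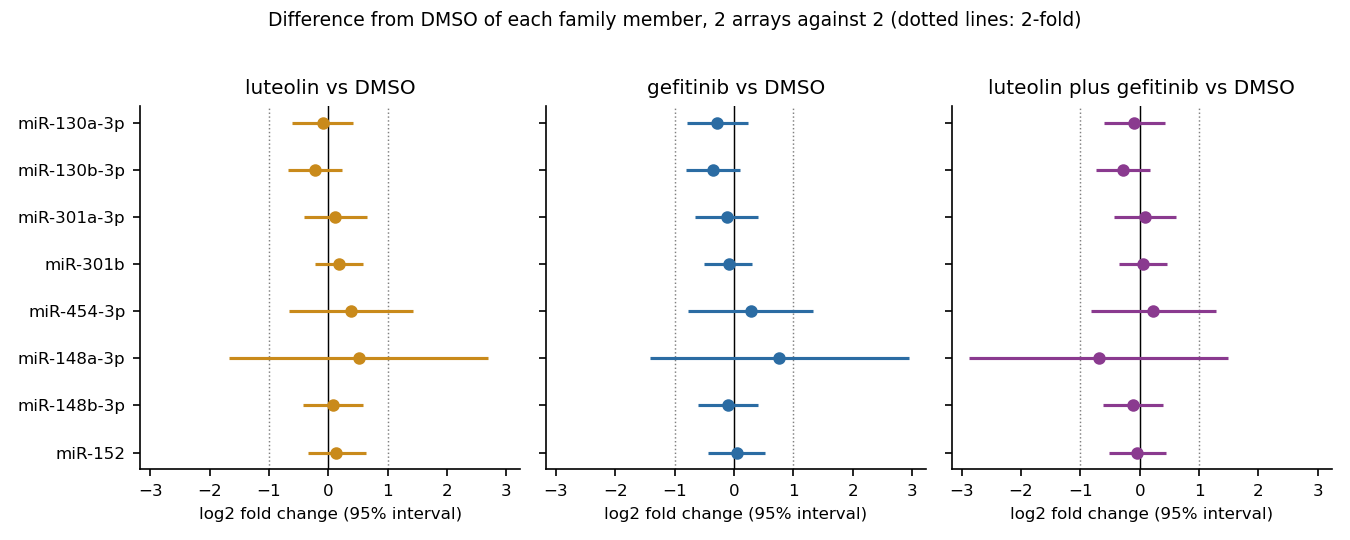
Log2 fold change of each member from DMSO under luteolin, gefitinib and both drugs (points) with the 95% interval of the limma fit (lines), 2 arrays against 2. Dotted lines mark 2-fold. Every interval includes 0, and the intervals of 6 members lie between -0.80 and 0.65, whereas those of miR-454-3p and miR-148a-3p are wider. The sign depends on the scaling: without scaling, the gefitinib values of the 7 members detected on every array lie between 0.02 and 0.65.

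The sign of these small values depended on how arrays were put on 1 scale. In the main scaling 2 of the 7 members detected on every array were higher with gefitinib than with DMSO, and 7 of 7 were higher without scaling or with arrays scaled to small-RNA control probes. The whole array moved along with them, since the median log2 fold change of the 365 miRNAs was -0.11 in the main scaling, 0.25 without scaling and 0.27 with the control probes. Relative to that median, the members lay between -0.23 and 0.39 under all 3. That likeness was fixed in advance, since these scalings differ only by 1 factor per array. For both drugs the control probes moved the median from -0.13 to 0.31, with the members between -0.16 and 0.35 relative to it, and 7 of 7 were then higher than DMSO in place of 3 of 7. With luteolin the members lay between -0.12 and 0.48 relative to a median of -0.09, 0.06 without scaling and 0.01 with the control probes. Quantile normalization is not 1 factor per array. Relative to its medians, the members lay between -0.20 and 0.38 with gefitinib, -0.27 and 0.49 with both drugs, and -0.12 and 0.49 with luteolin.

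Over the 6 pairwise comparisons of treatments, the arrays of 2 groups did not overlap in 7 of 48 pairs of a member and a comparison. The share over all 480 miRNAs was 26.9% for luteolin against DMSO, 57.5% for gefitinib against DMSO and 52.9% for both drugs against DMSO, and for the members it was 0, 2 and 1 of 8. The share was 34.2% for both drugs against luteolin, 51.0% for both drugs against gefitinib and 41.5% for gefitinib against luteolin, where the members gave 0, 3 and 1 of 8. The members that did not overlap were miR-130a-3p and miR-130b-3p (gefitinib below DMSO), miR-130b-3p (both drugs below DMSO), miR-301a-3p and miR-301b (both drugs above gefitinib), miR-152 (both drugs below gefitinib) and miR-301b (gefitinib below luteolin).

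Adding 1 drug to the other moved no member past the threshold. When gefitinib was added to luteolin, 0 of 8 members passed, beside 1.88% of all miRNAs, and the log2 fold changes ran from -0.20 to 0.00 in the 7 members other than miR-148a-3p, which had -1.21 (SE 0.88, adjusted p = 0.591). Its sign turned, to 0.13, without the second array of both drugs. When luteolin was added to gefitinib, 0 of 8 passed, beside 4.58%, and those 7 ran from -0.08 to 0.22, with miR-301a-3p at 0.22 (SE 0.21, adjusted p = 0.839) and miR-301b at 0.15 (SE 0.16, adjusted p = 0.839). Here miR-148a-3p had -1.46 (SE 0.88, adjusted p = 0.680), a value that was -0.12 without the second array of both drugs, on which it was not detected and was set to the floor. For gefitinib against luteolin 0 of 8 passed, beside 5.00%, and the lowest value was that of miR-301b at -0.28 (SE 0.16, adjusted p = 0.541). The interaction, which asks whether the log2 change with both drugs differs from the added changes of each alone, passed for 0 of 8 members, beside 3.33% of all miRNAs. Its values ran from -0.44 to 0.28 in the 7 members, and the value of miR-148a-3p was -1.97 (SE 1.25, adjusted p = 0.802), or between -3.31 and -0.64 when 1 array was left out. In these 4 comparisons, too, 0 members had an unadjusted p under 0.05, beside 15.4% of the 480 miRNAs for gefitinib added to luteolin, 12.5% for luteolin added to gefitinib, 16.7% for gefitinib against luteolin and 10.2% for the interaction. The methods' t-test gave 0 in the 3 that compare 2 groups.

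The wide intervals of miR-148a-3p and miR-454-3p moved with which probes the scanner software counted. Each of the 2 has 2 probes with 15 spots each, called A and B here, and the deposited total is the sum of the probes that the software accepted on that array. On the second DMSO array the total of miR-148a-3p, 1.80, was that of probe B alone, since probe A, with 1.48, was left out. On the second array of both drugs neither probe was counted, with 1.25 for probe A and 1.01 for probe B. Thus the step from 3.89 to not detected stood for a step from 3.89 to 2.26 in the sum of both probes.

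For miR-454-3p, probe A was left out on the first DMSO array (1.26) and on the second array of both drugs (1.70), where the totals were those of probe B, 5.51 and 9.19. Both probes were higher on the second array of DMSO and of luteolin. Probe A gave 1.26 and 2.10 with DMSO and 1.48 and 2.71 with luteolin, and probe B gave 5.51 and 9.26 with DMSO and 6.16 and 11.3 with luteolin. Leaving out the first DMSO array turned its log2 fold change from 0.28 to -0.24 with gefitinib and from 0.23 to -0.29 with both drugs. Without the second DMSO array the values were 0.80 and 0.75.

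When all probes were summed whether or not the software counted them, an alternative chosen after seeing the data, the SD of the log2 signal over the 8 arrays went from 0.986 to 0.355 for miR-148a-3p and from 0.395 to 0.329 for miR-454-3p. The log2 fold change of miR-148a-3p from DMSO was then 0.08 with luteolin, 0.33 with gefitinib (SE 0.33, adjusted p = 0.587) and -0.18 with both drugs, in place of 0.52, 0.76 and -0.69. The intervals of miR-148a-3p narrowed to -0.71 to 0.87 with luteolin, -0.46 to 1.12 with gefitinib and -0.97 to 0.61 with both drugs. Its interaction value was -0.59 (SE 0.47, adjusted p = 0.943) in place of -1.97. The other 6 members kept their SD within 0.01 of the deposited totals.

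**Figure D3:**
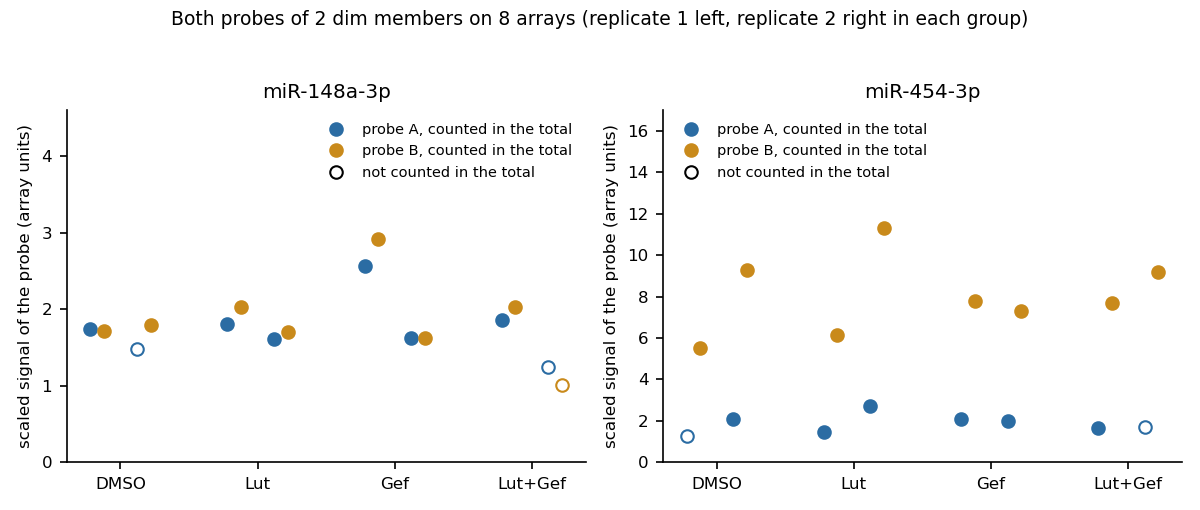
Scaled signal (array units, linear axis from 0) of probe A and probe B of miR-148a-3p and miR-454-3p on the 8 arrays, replicate 1 at the left and replicate 2 at the right of each treatment. Filled points were counted in the deposited total and open points were not. Both probes of miR-148a-3p are open on the second array of both drugs (1.25 and 1.01), and probe A is open on the second DMSO array (1.48).

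The separate probes of miR-130a-3p and miR-130b-3p gave like ratios to DMSO with gefitinib. The ratio of means with gefitinib was 0.823 and 0.817 for the 2 probes of miR-130a-3p and 0.786 and 0.785 for those of miR-130b-3p. The 2 probes of miR-301a-3p gave 1.03 and 1.21 with luteolin and 0.896 and 0.943 with gefitinib, so they were less alike with luteolin. For miR-148b-3p the 2 probes gave 1.07 and 1.03 with luteolin and 0.931 and 0.902 with gefitinib, but 0.951 and 0.795 with both drugs. Of the 4 probes of miR-301b, 1 had 0% of its spots well above background on every array. Likewise miR-152 rested on 1 of its 2 probes, since the other had at most 6.67% of its spots well above background on any array and was counted on none.

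In DMSO and in luteolin the arrays of a group differed in the same way for most members. In DMSO the second array was higher than the first for 7 of 8 members, by 0.23 for miR-301b to 1.04 for miR-454-3p on the log2 scale, and lower by 0.93 for miR-148a-3p. With luteolin the second array was likewise higher for 7 of 8, by 0.21 to 0.87. The arrays of gefitinib and of both drugs lay nearer to each other, with differences from -0.09 to 0.24 in the 7 members other than miR-148a-3p, and the second array was higher for 4 of 8 members in each of these groups. The median difference over the 365 miRNAs was between -0.03 and 0.11 in the 4 groups. The median size of such a difference, whatever its sign, was 0.39 in the luteolin arrays, 0.32 in the DMSO arrays, 0.19 with both drugs and 0.10 with gefitinib.

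**Figure D4:**
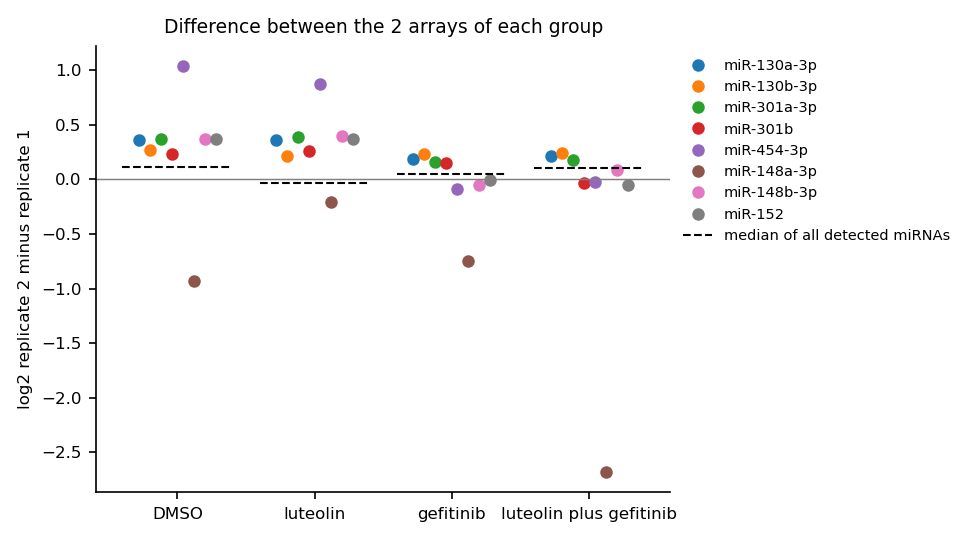
Log2 difference between the second and the first array of each treatment for the 8 members (points) and the median over the 365 miRNAs detected on all arrays (dashed lines). In DMSO and luteolin, 7 of 8 members lie above 0, between 0.21 and 1.04, and miR-148a-3p lies below 0 in every treatment, with the array on which it was not detected set to the floor of 0.609.

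Over all 8 arrays, the SD of the log2 signal was 0.188 for miR-130a-3p, 0.189 for miR-130b-3p, 0.189 for miR-301a-3p, 0.149 for miR-301b, 0.171 for miR-148b-3p and 0.159 for miR-152. These 6 lay below the median of 0.272 over the 365 miRNAs, at percentiles from 10.1 to 24.4. The SD of miR-454-3p was 0.395, at percentile 72.9, and that of miR-148a-3p was 0.986, at percentile 98.6. The SD within groups was of the same size as that over all arrays, with 0.136 to 0.210 for the 6 members, 0.483 for miR-454-3p and 1.039 for miR-148a-3p.

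**Figure D5:**
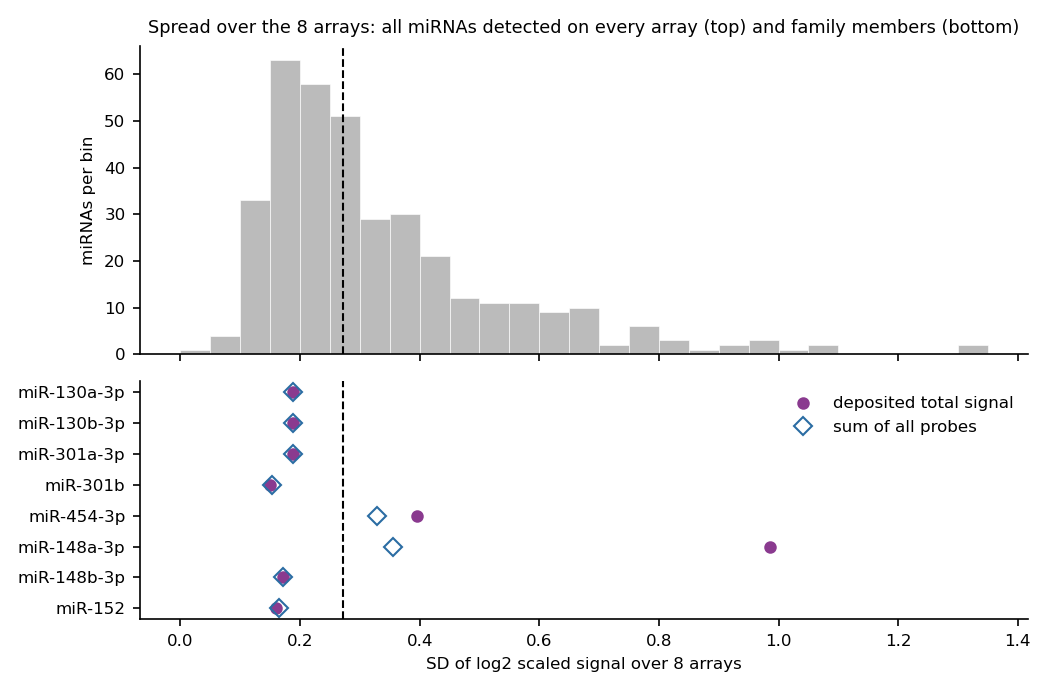
Histogram of the SD of the log2 scaled signal over the 8 arrays for the 365 miRNAs detected on every array (top) and the SD of each member (bottom), from the deposited totals (circles) and from the sum of all probes (diamonds). The dashed line is the median of 0.272. Of the 8 members 6 lie left of it, and miR-148a-3p moves from 0.986 to 0.355 when all probes are summed.

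Likeness between profiles was measured as the SD, over the 8 arrays, of the difference between 2 log2 signals, a description in which all miRNAs share the same arrays and scaling. Within the families the closest pairs were miR-148b-3p and miR-152 (0.068), miR-301a-3p and miR-301b (0.086), miR-130a-3p and miR-130b-3p (0.089), and miR-130a-3p and miR-301a-3p (0.090). Of the members that lie together in the genome, miR-130b-3p and miR-301b gave 0.180, and miR-301a-3p and miR-454-3p gave 0.286, the lowest of the 4 values of miR-454-3p within its family. Pairs across the families were as close as some within them, with 0.111 for miR-301b and miR-148b-3p, 0.113 for miR-301b and miR-152, and 0.114 for miR-301a-3p and miR-148b-3p. For miR-454-3p the closest member was miR-152 of the other family (0.253). Of 358 other miRNAs detected on all arrays, the nearest to the mean profile of the 5 miR-130 members were miR-125b-5p (0.040), miR-100-5p (0.050), miR-107 (0.056), miR-4324 (0.060) and miR-342-3p (0.061), against a median of 0.317. The nearest to the mean of miR-148b-3p and miR-152 were miR-103a-3p (0.042), miR-100-5p (0.048), miR-107 (0.055), miR-23b-3p (0.057) and miR-25-3p (0.058), against a median of 0.301. Thus miR-100-5p and miR-107 stood among the 5 nearest to both families.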

How the data were processed

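The authors hybridised Cy3-labelled total RNA to 1-colour Agilent miRNA arrays and extracted each array with Agilent Feature Extraction 10.7.3.1, per the file headers. The deposited values are background-subtracted signal intensity without normalization between arrays. For each miRNA the software sums accepted probes and writes 0.1 where it detects none. Of 56610 miRNA spots per array, 0 were saturated. Which probes were accepted was found by matching sums to the total within 0.1%.

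Totals were scaled to the 75th percentile of the 365 miRNAs detected on all arrays, raised to a floor of 0.609 and taken to log2. The 480 miRNAs with both arrays detected in 1 or more treatments were fitted in 1 model of the 4 treatments (limma 3.58.1, R 4.3.3; 4 residual degrees of freedom, prior 1.66). A call required a two-sided p, adjusted by the Benjamini-Hochberg method over all 480, under 0.05. The same log2 values also went through a Student's t-test, the test that the authors name (called the methods' t-test). Their fold-change limit and their normalization to DMSO were not applied. An exact permutation test of 2 arrays against 2 cannot give a p under 0.333. The 2 arrays per group limit precision, and p-values measure the spread between these cultures only. The model takes 1 spread per miRNA for all 4 treatments, so an SE also draws on groups outside the comparison. The median size of the replicate difference was 0.39 with luteolin and 0.10 with gefitinib. The fit was also run on simulated arrays with independent noise and 1 spread per miRNA. That run cannot show how the fit behaves with shifts shared between arrays or unequal spreads. Named miRNAs were the members, their opposite arms, miRNAs with the same seed and the 5 nearest profiles to each family. The members and lists were chosen with earlier results of these data known. Alternatives covered scaling, background, filter, floor, test, replicate block and leaving out each array. Array coordinates (hg19) were not used. Sequences and gene names came from RefSeq tables of GRCh38.p14, in which 7 of 8 members had a mature entry, and strands of host genes were not compared.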

Additional observations from a re-analysis of the deposited data

How the results depend on the processing

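With 22 other settings, the number of members called stayed at 0 in each of the 7 comparisons, except that the methods' t-test and the fit of only the groups compared were not run for the interaction and that miR-148a-3p was not among the miRNAs when only those detected on all arrays were fitted, and the lowest adjusted p of any member was 0.0678 (miR-148a-3p, both drugs against gefitinib, with the undetected array as the only array of both drugs). That value rests on the floor. Scaled to control probes, miR-301b with both drugs had an adjusted p of 0.0819. The signs of the small differences did not hold as well. Without scaling, the log2 fold change turned to 0.06 for miR-130a-3p with luteolin and, with gefitinib, to 0.09 (miR-130a-3p), 0.02 (miR-130b-3p), 0.24 (miR-301a-3p), 0.27 (miR-301b) and 0.26 (miR-148b-3p). Scaled to control probes, it turned to 0.01 for miR-130a-3p with luteolin, to 0.10, 0.04, 0.26, 0.29 and 0.28 for the same 5 with gefitinib, and with both drugs to 0.35 (miR-130a-3p), 0.16 (miR-130b-3p), 0.32 (miR-148b-3p) and 0.40 (miR-152). Quantile normalization gave 0.01 for miR-301b with gefitinib and 0.45 for miR-152 with both drugs. Normexp with quantile normalization gave 0.00 for miR-301b with gefitinib and, with both drugs, 0.02 for miR-148a-3p and for miR-152. The mean processed signal and the series value table gave -0.01 for miR-301b with both drugs.

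Leaving out 1 array at a time leaves a group with 1 array, which is assumed to vary like the other groups. The luteolin values ran from -0.27 to 0.09 (miR-130a-3p), -0.07 to 0.32 (miR-301a-3p), -0.14 to 0.91 (miR-454-3p), -0.12 to 0.28 (miR-148b-3p) and -0.05 to 0.33 (miR-152). With gefitinib they ran from -0.31 to 0.06 (miR-301a-3p), -0.21 to 0.02 (miR-301b), -0.24 to 0.80 (miR-454-3p), -0.29 to 0.08 (miR-148b-3p) and -0.14 to 0.23 (miR-152). With both drugs they ran from -0.27 to 0.08 (miR-130a-3p), -0.10 to 0.28 (miR-301a-3p), -0.06 to 0.17 (miR-301b), -0.29 to 0.75 (miR-454-3p), -2.03 to 0.64 (miR-148a-3p), -0.30 to 0.07 (miR-148b-3p) and -0.22 to 0.15 (miR-152). For miR-148a-3p they ran from -2.55 to 0.13 for both drugs against luteolin and from -0.13 to 0.62 for gefitinib against luteolin. Other values kept their sign but moved in size: with luteolin -0.35 to -0.08 (miR-130b-3p), 0.05 to 0.32 (miR-301b) and 0.05 to 0.98 (miR-148a-3p), with gefitinib -0.46 to -0.10 (miR-130a-3p), -0.48 to -0.21 (miR-130b-3p) and 0.30 to 1.23 (miR-148a-3p), with both drugs -0.42 to -0.15 (miR-130b-3p), and for miR-148a-3p -2.80 to -0.12 for both drugs against gefitinib and -3.31 to -0.64 for the interaction. In the other comparisons 66 of 602 values changed sign, at most 0.40 in size. The cause of these changes was not tested.

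The replicate numbers, which coincide with the row of the slide, were not taken to pair the arrays, since deviations of same-numbered arrays did not correlate in every pair of groups. Over the 365 miRNAs the correlation was 0.91 for DMSO and luteolin, 0.41 for DMSO and both drugs and 0.46 for luteolin and both drugs, but -0.13, -0.09 and 0.07 for gefitinib with DMSO, luteolin and both drugs. The luteolin minus DMSO difference had the same sign within both numbers for 8 of 8 members, beside 77.0% of the 365 miRNAs. For gefitinib this held for 5 of 8 members, beside 69.3%, and for both drugs for 2 of 8, beside 69.9%. Within the numbers, the luteolin differences were -0.19 and -0.25 for miR-130b-3p, 0.17 and 0.20 for miR-301b and 0.14 and 0.14 for miR-152. They were less alike for miR-454-3p (0.47 and 0.30) and miR-148a-3p (0.15 and 0.88). The overlaps of arrays, the intervals of the main fit and the values with 1 array left out take no account of the numbers. For luteolin against DMSO they thus include the shift that same-numbered arrays shared. The fit with a replicate block takes 1 shift for all treatments, gefitinib included. It called 0 members, with a lowest adjusted p of 0.107 (miR-130b-3p with gefitinib) in the comparisons with DMSO. Over all 480 miRNAs it called 5 in place of 9 for gefitinib added to luteolin, and it moved the other counts by less than 1.5 times. The 75th percentile over all miRNAs fell on undetected ones, so this scaling could not be run. The intervals of miR-454-3p and miR-148a-3p in the deposited totals do not limit a change to within 2-fold. With all probes summed, those of miR-148a-3p with luteolin and with both drugs and that of miR-454-3p with gefitinib do. That holds in the main scaling, and the summing was chosen after seeing the data. Intervals of the summed probes under other scalings were not computed.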
